A study of Mus musculus with 12 samples.

Results

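Transcripts of 10 genes that shape, multiply and remove mitochondria were followed across brown and white adipose tissue of mice with an adipose-specific knockout of the mitochondrial calcium uniporter gene Mcu (AKO) and of their controls. The genes were chosen by name: Mfn1, Mfn2 and Opa1 for fusion, Dnm1l, Fis1 and Mff for fission, Tfam, Nrf1 and Polg for biogenesis, and Pink1 for the removal of damaged mitochondria. Each symbol matched 1 Ensembl ID, so the set held 10 of the 52550 gene IDs in the count table, and all 10 passed the filter on low counts in every comparison. RNA of brown adipose tissue (BAT) and of inguinal white adipose tissue (WAT) was sequenced in 12 libraries, 3 in each of 4 groups: BAT AKO, BAT control, WAT AKO and WAT control. AKO mice were Mcu fl/fl animals with Mcu removed in adipose tissue, and controls carried the same floxed alleles without that removal. The series' design text puts AKO and control mice alike on a high-fat diet, and it asks how their expression differed in each fat depot. The sources used here do not give the Cre driver, the floxed exon, age or sex. Nor do they say that each library came from an animal of its own, so a p-value here covers the spread from library to library, which may be technical.

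Mitochondria form a network that is remodelled by fusion and fission. The mitofusins Mfn1 and Mfn2 join outer membranes and Opa1 joins inner membranes and keeps the cristae in shape. Dnm1l (also called Drp1) is a GTPase recruited from the cytosol to constrict the organelle, and Mff and Fis1 sit in the outer membrane, where Mff is its main receptor in mammals. Tfam packages mitochondrial DNA and acts in its transcription, and Polg is the catalytic subunit of the polymerase that copies this DNA. Nrf1 (nuclear respiratory factor, not the factor Nfe2l1 that is sometimes given the same name) switches on nuclear genes for mitochondrial proteins. Pink1 is a kinase that builds up on depolarised mitochondria and marks them for mitophagy. Brown adipocytes are packed with mitochondria for heat production, and in them the uniporter lets calcium into the matrix.

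Total counts ran from 15692588 to 18967159 per library. Mcu itself averaged 10.8 ± 3.33 CPM in BAT AKO and 26.5 ± 2.42 CPM in BAT control, and 11.2 ± 1.21 CPM in WAT AKO and 18.5 ± 0.454 CPM in WAT control (SD, n = 3 each; CPM is a count scaled to the library's total, here after TMM normalisation over all 12 libraries), with no overlap within a tissue. Even so, edgeR's quasi-likelihood test with Benjamini-Hochberg adjustment did not call Mcu itself in BAT (log2 fold change −1.27, adjusted p = 0.202, 1.13e-05 to 0.552 over the alternatives) or in WAT (−0.75, adjusted p = 0.0799, 0.000285 to 0.313 over the alternatives). The depots matched their labels: the summed level of 9 brown adipocyte markers was 6518 to 8211 CPM of the library total in BAT and 96.2 to 142 CPM in WAT. Transcripts encoded by mitochondrial DNA took 14.7% to 17.8% of counts in BAT and 2.86% to 3.78% in WAT. Skeletal muscle markers (16 of 16 detected) took 2.48% of counts in WAT AKO 2, 1.90% in BAT AKO 2 and 1.41% in WAT control 1, against 0.358% or less in the other 9 libraries. B lymphocyte markers (9 of 9 detected) summed to 883, 589 and 1538 CPM of the library total in the WAT AKO libraries and to 3.43, 463 and 3.56 CPM in the WAT controls, and reached at most 11.5 CPM in BAT.

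The genes lie on 8 chromosomes, and stretches around their RefSeq starts are shown where a known promoter motif was found. On the mm10 build with the GENCODE M21 annotation, Mfn1 spans chr3:32529465-32579239 (plus strand), Mfn2 chr4:147873599-147904704 (minus), Opa1 chr16:29579334-29654884 (plus), Dnm1l chr16:16312230-16358959 (minus), Fis1 chr5:136953275-136966234 (plus) and Mff chr1:82724890-82752394 (plus). Tfam spans chr10:71225464-71238280 (minus), Nrf1 chr6:30047988-30153458 (plus), Polg chr7:79446231-79466362 (minus) and Pink1 chr4:138313409-138326307 (minus). In RefSeq promoter windows of 300 bases (250 before a start and 50 from it, GRCm38.p6, both strands searched), the core of the Nrf1 binding site (GCGC and TGCGC with any 1 base between them) occurred at Opa1 and Pink1, and in 5.19% of 27025 genes. The site CCGGAAGT, bound by ETS factors such as GABP (once named NRF2), occurred at Mfn1, Fis1, Tfam and Polg, and in 4.31% of genes. The estrogen-related receptor site TCAAGGTCA occurred at no member, and in 0.466% of genes. Such a match describes letters in a window and shows no binding. The stretches below run 5′ to 3′ on the strand of the gene, with the matched motif in capitals. Those of Mfn1, Opa1 and Fis1 lie before the GENCODE start, those of Tfam and Polg lie within the GENCODE gene, in its exons, and that of Pink1 crosses its start.
Mfn1 (chr3:32529365-32529464, plus): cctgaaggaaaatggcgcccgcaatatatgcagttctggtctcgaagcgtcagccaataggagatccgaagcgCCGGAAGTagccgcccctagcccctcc
Opa1 (chr16:29579234-29579333, plus): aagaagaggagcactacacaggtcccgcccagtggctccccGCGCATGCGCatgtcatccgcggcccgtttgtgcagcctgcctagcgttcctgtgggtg
Fis1 (chr5:136953175-136953274, plus): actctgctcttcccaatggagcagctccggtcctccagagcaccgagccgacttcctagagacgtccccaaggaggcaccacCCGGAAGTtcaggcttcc
Tfam (chr10:71238073-71238102, minus): cctgccgcggaCCGGAAGTccgggcttccc
Polg (chr7:79466293-79466322, minus): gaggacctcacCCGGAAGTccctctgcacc
Pink1 (chr4:138326287-138326316, minus): accgccccccGCGCTTGCGCacaggcgccg
Of the 4 genes with the CCGGAAGT site, Mfn1, Tfam and Polg were called higher in BAT and Fis1 lower, and both genes with the Nrf1 core were called higher. With library totals, Tfam and Polg of AKO mice were no longer called and Polg turned to −0.02. Of all genes tested, 59.3% were called in AKO mice and 50.1% in controls, and a link between motif and call was not tested.

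Per exon length of the gene, Pink1 was the most abundant and Nrf1 the least abundant of the 10 genes in all 4 groups. Pink1 averaged 158 ± 14.7 FPKM in BAT AKO, 153 ± 8.94 in BAT control, 108 ± 10.9 in WAT AKO and 97.1 ± 4.83 in WAT control (SD, n = 3 each; FPKM is the authors' count scaled to gene length and library total). Nrf1 averaged 1.36 ± 0.092 FPKM in BAT AKO, 1.56 ± 0.13 in BAT control, 2.38 ± 0.461 in WAT AKO and 1.64 ± 0.4 in WAT control. Mfn2 held the second place in BAT, at 112 ± 7.75 FPKM in AKO and 108 ± 4.85 FPKM in control. In WAT it shared that place with Fis1, since their ranges overlapped: Fis1 averaged 63.0 ± 2.28 FPKM in AKO and 62.8 ± 5.5 FPKM in control, and Mfn2 60.4 ± 4.8 FPKM in AKO and 63.4 ± 6.46 FPKM in control. In BAT, Fis1 stood at only 31.0 ± 4.12 FPKM in AKO and 35.6 ± 1.69 FPKM in control, so that Mfn2 was above it by a ratio of means of 3.61 and 3.04. The rest of the order was Opa1 (22.3 ± 1.67), Mfn1 (16.4 ± 0.677) and Dnm1l (14.7 ± 0.998 FPKM) in BAT control, and Dnm1l (17.3 ± 1.59), Opa1 (10.2 ± 0.307) and Mfn1 (7.51 ± 0.458 FPKM) in WAT control, each neighbour apart from the next. Tfam, Mff and Polg followed, between 5.49 and 8.08 FPKM in the control means, and Mff and Polg overlapped in each control group. In AKO mice Fis1 overlapped with Opa1, and Mfn1 with Dnm1l, in BAT, and Opa1 with Mfn1, Mfn1 with Tfam, and Polg with Mff in WAT. The FPKM of Dnm1l implies a length of 4107 bases, against 5203 exon bases in GENCODE M21, so its place in the order depends on the annotation, whereas the other 9 lengths are the same in both.

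**Figure D1:**
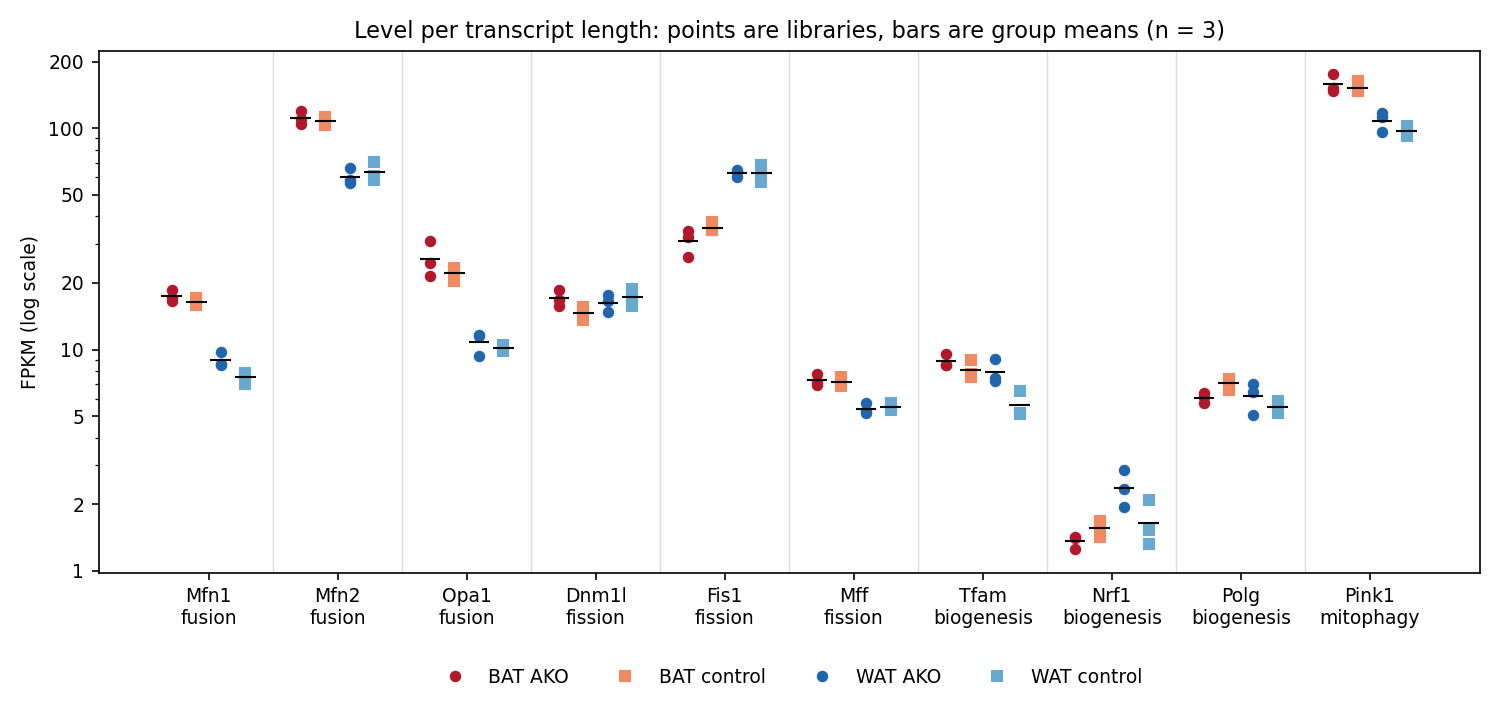
Level of each gene in FPKM on a log axis, by group, with a point per library and a bar at the group mean (n = 3). Pink1 is highest and Nrf1 lowest in every group, and Fis1 stands lower in BAT than in WAT in both genotypes. Dnm1l, Tfam and Polg of AKO mice overlap between the depots on this scale, which has no TMM factor.

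Brown fat held more transcript of the fusion genes, Mff, Tfam, Polg and Pink1 than white fat, and less of Fis1, relative to the other genes of each depot (with library totals in place of TMM, Polg of AKO mice turned to −0.02). In AKO mice 8 of the 10 genes were higher in BAT and 1 was lower at an adjusted p under 0.05, where 59.3% of all genes tested were called (28.8% higher and 30.5% lower). In controls 7 were higher and 1 lower, where 50.1% of all genes were called (24.4% higher and 25.7% lower). The median log2 fold change of BAT over WAT was 0.87 for the 10 genes in AKO mice, against −0.02 for all genes tested, and 0.81 in controls, against −0.04. These control and AKO contrasts share no library. In bulk tissue, fewer cells of a type and less RNA per cell cannot be told apart. Without the 3 libraries with most muscle transcripts the same 9 genes were called in AKO mice and the same 8 in controls.

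**Figure D2:**
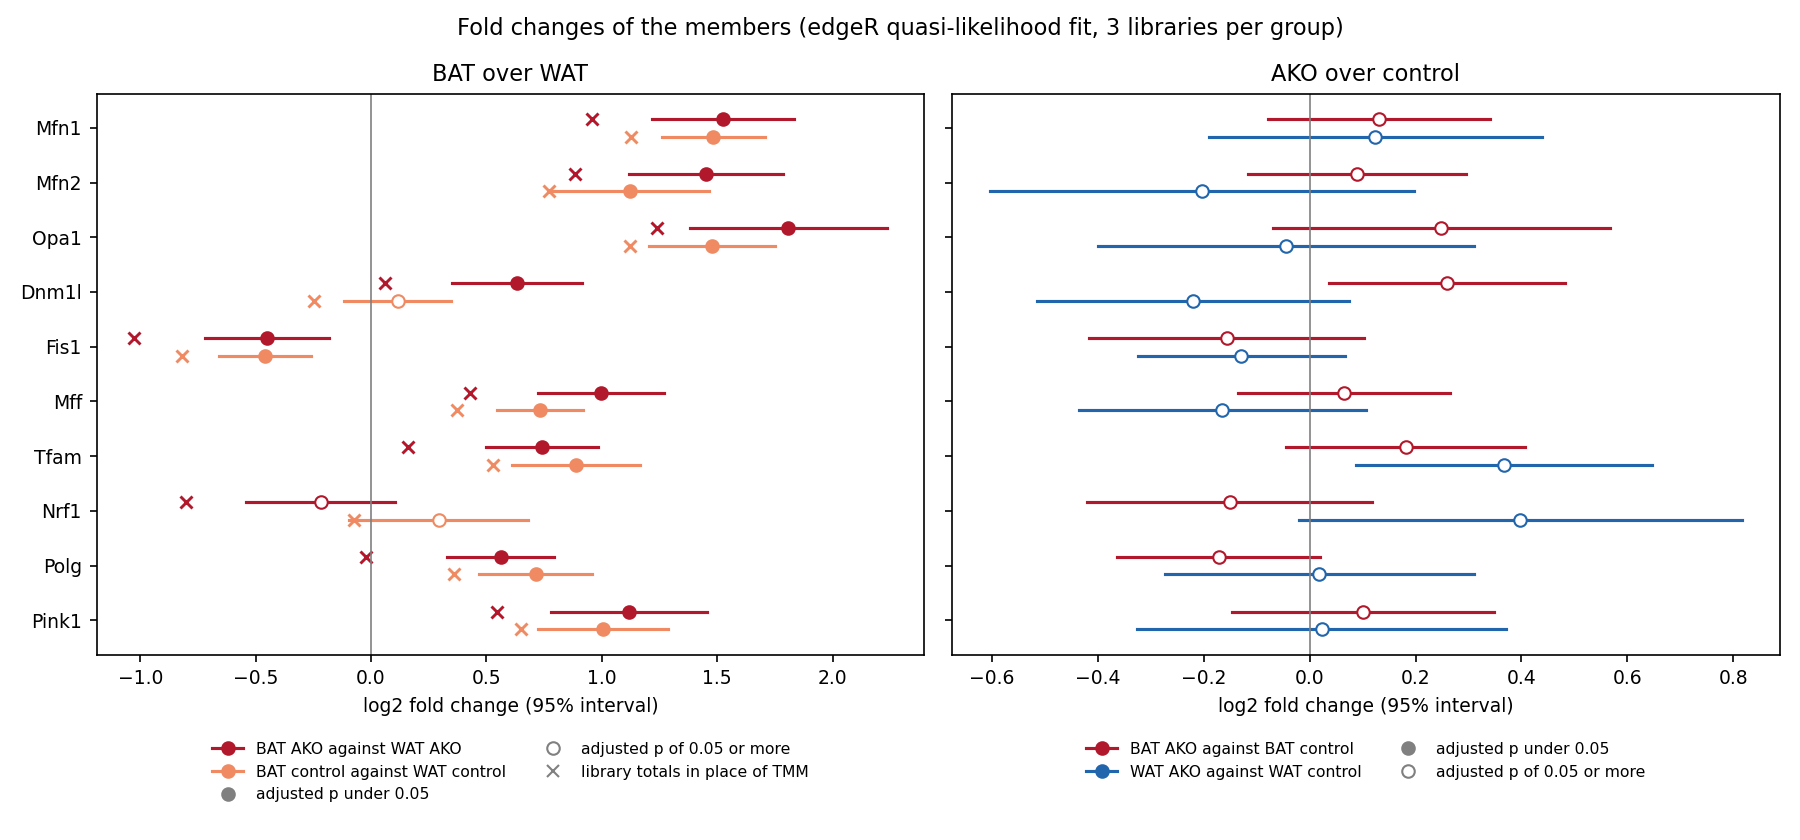
Log2 fold change of each gene with its 95% interval, for BAT over WAT (left, crosses with library totals in place of TMM) and AKO over control (right), with circles filled where the adjusted p was under 0.05. BAT over WAT lies to the right of 0 for the fusion genes, Mff and Pink1 and to the left for Fis1 under either scaling, whereas library totals move Dnm1l and Nrf1 in controls and Polg in AKO mice below 0; every circle of AKO over control is open, and there library totals turn Fis1 and Opa1 of WAT above 0.

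Mfn1, the tighter membrane tether of the mitofusins, measured 117, 134 and 123 CPM in BAT AKO, against 41.5, 52.7 and 42.2 CPM in WAT AKO. In controls it measured 113, 119.9 and 114 CPM in BAT, against 44.6, 40.7 and 38.2 CPM in WAT. Every BAT library lay above every WAT library by more than the spread within a group. The log2 fold change was 1.53 (SE 0.131, edgeR quasi-likelihood test, adjusted p = 5.81e-05) in AKO mice and 1.48 (SE 0.0945, adjusted p = 6.6e-05) in controls, or 2.88-fold and 2.80-fold. Opa1, the inner membrane fusion GTPase, reached 223, 201 and 286 CPM in BAT AKO and 72.5, 81.0 and 59.0 CPM in WAT AKO, and 216, 207 and 184 CPM in BAT control and 77.3, 65.7 and 73.5 CPM in WAT control. BAT AKO 3 stood above the rest for Opa1, and the depots did not overlap. Its log2 fold change was 1.81 (SE 0.182, adjusted p = 0.000127) in AKO mice, the largest of the 10, and 1.48 (SE 0.115, adjusted p = 0.000123) in controls. Mfn2, which also tethers mitochondria to the endoplasmic reticulum, measured 631, 676 and 734 CPM in BAT AKO and 243, 302 and 237 CPM in WAT AKO, and 684, 649 and 614 CPM in BAT control and 349.5, 267 and 272 CPM in WAT control. The highest Mfn2 values of WAT were those of WAT control 1 and WAT AKO 2, the WAT libraries with most muscle transcripts, and the part of muscle in them was not tested. The log2 fold change of Mfn2 was 1.45 (SE 0.143, adjusted p = 0.000112) in AKO mice and 1.12 (SE 0.143, adjusted p = 0.000914) in controls, and without the muscle-rich libraries it was 1.60 and 1.29.

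The fission genes did not move as a block. Fis1, a small tail-anchored protein of the outer membrane, was the only one of the 10 called lower in BAT with TMM (library totals added Nrf1 of AKO mice). It measured 67.9, 65.6 and 53.1 CPM in BAT AKO, against 86.9, 91.5 and 89.3 CPM in WAT AKO. In controls it measured 69.3, 73.5 and 68.3 CPM in BAT, against 93.4, 98.9 and 96.3 CPM in WAT. The depots were separate in each genotype, with BAT AKO 3 the lowest library of all 12. The log2 fold change was −0.45 (SE 0.115, adjusted p = 0.0112) in AKO mice and −0.46 (SE 0.0839, adjusted p = 0.00417) in controls. Mff, the receptor for Dnm1l, went the other way, with 78.3, 82.2 and 88.7 CPM in BAT AKO, 40.9, 49.4 and 40.6 CPM in WAT AKO, 81.4, 76.4 and 84.0 CPM in BAT control and 49.4, 47.2 and 48.2 CPM in WAT control. Every BAT library of Mff lay above every WAT library, and the log2 fold change came to 1.00 (SE 0.117, adjusted p = 0.000265) in AKO mice and 0.73 (SE 0.0787, adjusted p = 0.000456) in controls. Dnm1l, the fission GTPase itself, measured 79.5, 76.2 and 90.1 CPM in BAT AKO, against 57.7, 59.8 and 48.7 CPM in WAT AKO, and was called higher in BAT of AKO mice (log2 fold change 0.63, SE 0.12, adjusted p = 0.0029), though with library totals its value was 0.06. In controls it measured 75.0, 63.9 and 69.4 CPM in BAT and 61.2, 60.9 and 69.1 CPM in WAT, which overlapped (log2 fold change 0.12, 95% interval −0.12 to 0.35, adjusted p = 0.355; −0.25 with library totals). That Dnm1l passed in 1 genotype only is not shown to be a difference between genotypes: the test of the difference gave 0.44 on the log2 scale with an adjusted p of 0.168 in edgeR and 0.0412 in DESeq2.

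Of the biogenesis genes, Tfam and Polg were higher in BAT with TMM and Nrf1 was not called. Tfam measured 43.8, 44.8 and 49.98 CPM in BAT AKO and 26.3, 28.4 and 32.4 CPM in WAT AKO, and 39.0, 45.6 and 39.4 CPM in BAT control and 21.7, 24.5 and 20.4 CPM in WAT control. Here the depots did not overlap, and BAT stood higher by 0.74 on the log2 scale (SE 0.103, adjusted p = 0.000627) in AKO mice and 0.89 (SE 0.117, adjusted p = 0.00107) in controls. With library totals Tfam of AKO mice came to 0.16 and was not called (adjusted p = 0.26). Polg measured 78.8, 72.9 and 77.4 CPM in BAT AKO and 55.3, 47.8 and 60.2 CPM in WAT AKO, and 92.5, 80.6 and 88.7 CPM in BAT control and 55.7, 47.0 and 56.0 CPM in WAT control. It too was separate by depot, by 0.56 on the log2 scale (SE 0.0986, adjusted p = 0.00197) in AKO mice, where library totals gave −0.02, and by 0.71 (SE 0.103, adjusted p = 0.00155) in controls. Polg shares 921 exon bases with Fanci on the opposite strand, and Fanci held 0 to 34 counts per library beside 960 to 1312 for Polg. Nrf1 was the weakest transcript, at 16.8, 17.3 and 15.2 CPM in BAT AKO, 19.1, 17.6 and 23.6 CPM in WAT AKO, 17.1, 19.7 and 18.8 CPM in BAT control and 12.9, 18.2 and 14.0 CPM in WAT control. Its log2 fold change of BAT over WAT was −0.22 in AKO mice (95% interval −0.54 to 0.11, adjusted p = 0.21) and 0.29 in controls (95% interval −0.10 to 0.68, adjusted p = 0.177; −0.07 with library totals). With library totals Nrf1 of AKO mice was called lower, at −0.80 (adjusted p = 0.00372). In AKO mice its groups did not overlap, and in controls leaving out WAT control 2, the highest Nrf1 library of that group, gave 0.47 (adjusted p = 0.031). WAT control 2 also held the most B and T lymphocyte markers of the WAT controls, and their part in this value was not tested.

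Pink1 measured 456, 554 and 479 CPM in BAT AKO and 249, 264 and 206 CPM in WAT AKO, and 461, 498 and 452 CPM in BAT control and 259, 219.5 and 220.3 CPM in WAT control. All BAT libraries stood clear of all WAT libraries, by 1.12 on the log2 scale (SE 0.144, adjusted p = 0.000432) in AKO mice and 1.01 (SE 0.119, adjusted p = 0.000678) in controls. The highest Pink1 library, BAT AKO 2, was the muscle-rich BAT library, and its part was not tested. Counted on the TMM scale, all 10 genes had AKO depots that did not overlap and 8 had control depots that did not overlap, beside 67.5% and 61.4% of all genes tested. In FPKM, which has no TMM factor, Dnm1l, Tfam and Polg of AKO mice overlapped between the depots. Dnm1l of controls was then separate, with BAT lower.

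**Figure D3:**
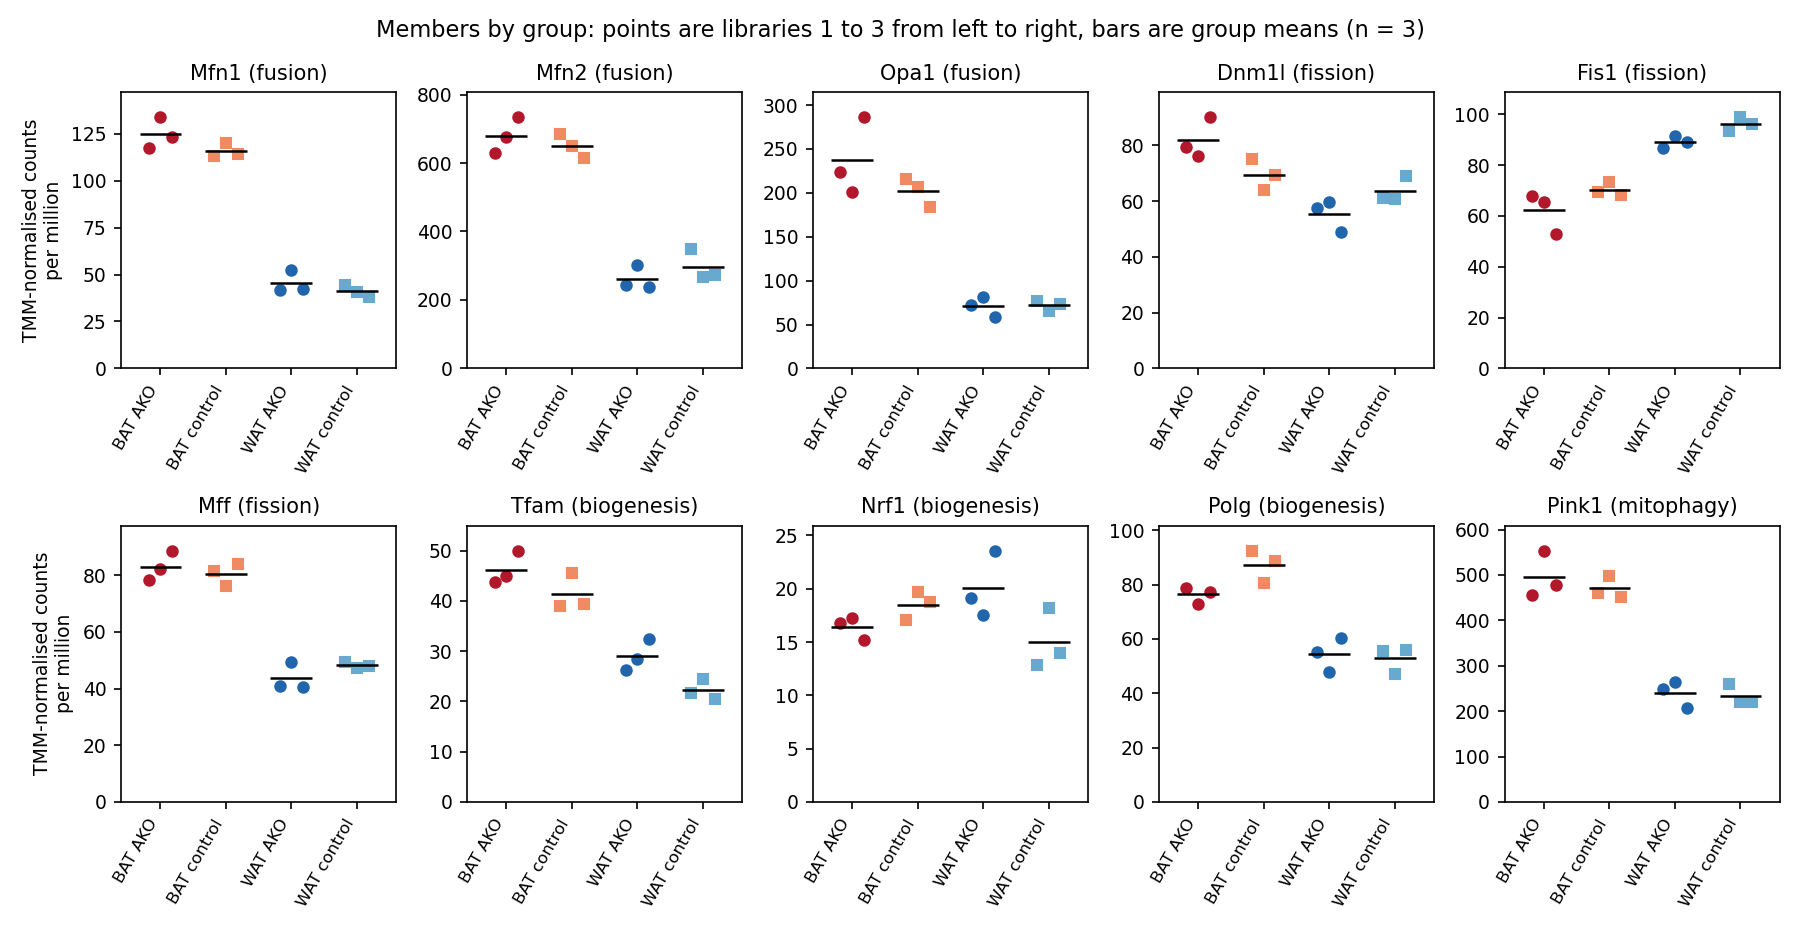
TMM-normalised CPM of each gene in every library, by group, with the group mean as a bar (n = 3, axes from 0). The fusion genes, Mff and Pink1 stand well higher in BAT and Fis1 lower, Tfam and Polg stand higher by a smaller margin that in AKO mice is not called with library totals (Polg then turns to −0.02), Nrf1 shows no common order, and AKO and control sit close to each other within a depot.

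How far the depots differed depended on the scaling. With library totals in place of TMM the median of all genes moved by −0.58 in AKO mice and by −0.36 in controls on the log2 scale. The part of the larger mitochondrial share of BAT counts, given above, in these shifts was not tested. The share of all genes called was then 13.2% higher and 55.9% lower in AKO mice and 14% higher and 41.6% lower in controls. In controls the same 8 of the 10 genes were called, from Mfn1 (1.13) and Opa1 (1.12) down to Polg (0.36) and Fis1 (−0.82). In AKO mice Opa1 (1.24), Mfn1 (0.96), Mfn2 (0.88), Pink1 (0.55) and Mff (0.43) remained called as higher and Fis1 (−1.03) as lower, and Nrf1 (−0.80, adjusted p = 0.00372) was now called lower. Tfam (0.16, adjusted p = 0.26), Dnm1l (0.06, adjusted p = 0.653) and Polg (−0.02, adjusted p = 0.888) of AKO mice were then no longer called, so that 5 genes were higher and 2 lower.

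Ratios taken within a library do not depend on its scaling. The summed FPKM of Mfn1, Mfn2 and Opa1 over that of Dnm1l, Fis1 and Mff was 2.52, 2.72 and 3.19 in BAT AKO and 2.65, 2.58 and 2.45 in BAT control, against 0.910, 1.06 and 0.880 in WAT AKO and 1.13, 0.859 and 0.872 in WAT control. The group means were 2.81 ± 0.343 in BAT AKO and 2.56 ± 0.0992 in BAT control, against 0.948 ± 0.0936 in WAT AKO and 0.955 ± 0.155 in WAT control (SD, n = 3 each). On the FPKM scale fusion and fission transcripts were thus about level in white fat, though the size of each ratio depends on the gene lengths used. Within a depot the genotypes overlapped. Mfn2 is the bulk of the fusion sum and Fis1 of the fission sum, so the ratio follows these genes more than the others. Mfn2 over Mfn1 was 6.33, 5.95 and 7.004 in BAT AKO, 7.11, 6.37 and 6.33 in BAT control, 6.88, 6.74 and 6.60 in WAT AKO and 9.22, 7.73 and 8.38 in WAT control. WAT control lay above every other group for this ratio with no overlap, at 8.44 ± 0.747 against 6.74 ± 0.14 in WAT AKO, a comparison of 3 with 3 libraries for which no test was made. Mff over Fis1, a ratio picked after its values were seen, was 0.239 ± 0.0483 in BAT AKO and 0.202 ± 0.0174 in BAT control, against 0.0858 ± 0.00805 in WAT AKO and 0.0882 ± 0.00453 in WAT control.

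**Figure D4:**
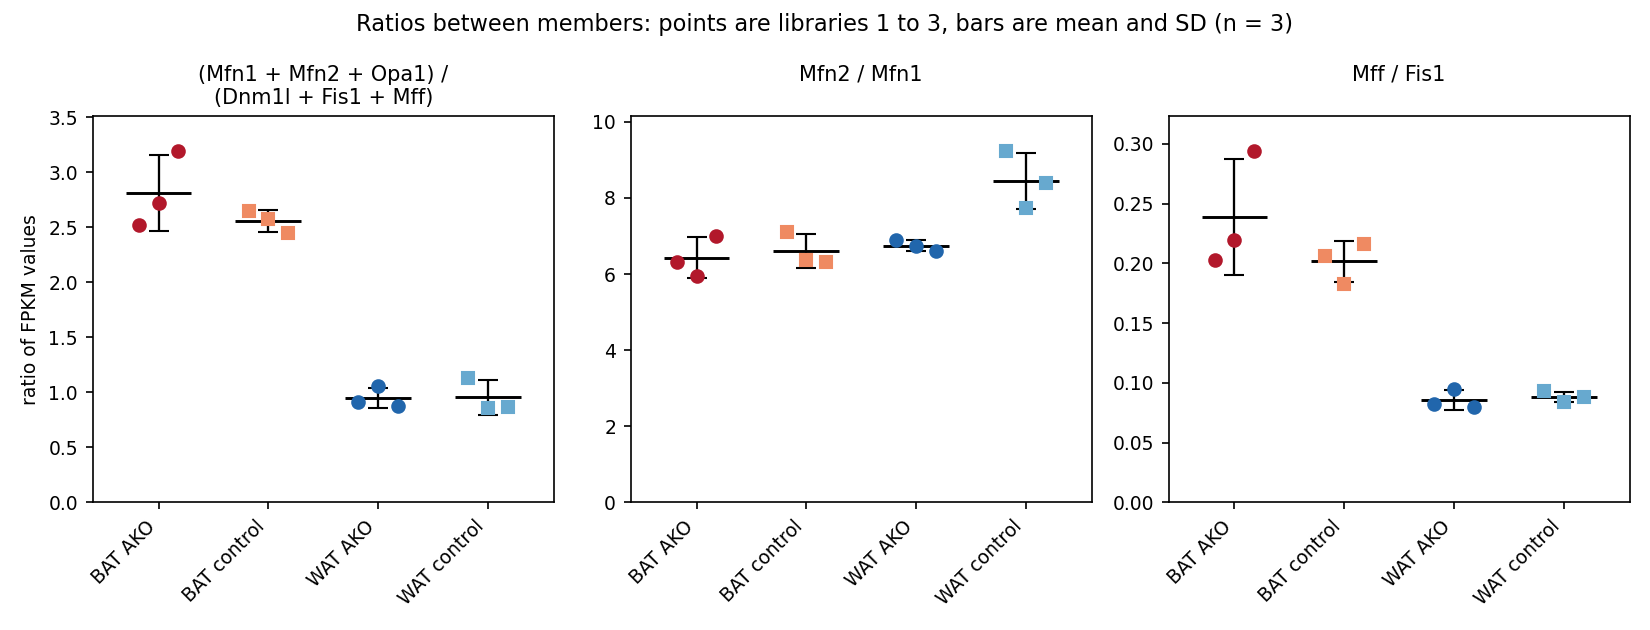
Ratios of FPKM within each library, by group: fusion over fission genes, Mfn2 over Mfn1, and Mff over Fis1, with points for libraries and bars for mean and SD (n = 3). Fusion over fission and Mff over Fis1 separate BAT from WAT in both genotypes, and Mfn2 over Mfn1 is highest in the 3 WAT control libraries (7.73 to 9.22).

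None of the 10 transcripts was called as changed in white fat of AKO mice. In WAT AKO against WAT control, edgeR's quasi-likelihood test called 0 of the 10 genes at an adjusted p under 0.05, where 0.0189% of all genes tested were called (3 genes). DESeq2, which called 10.6% of all genes, and limma voom called 0 of the 10 as well, and at an unadjusted p under 0.05 there was 1, Tfam, beside 22.6% of all genes. Tfam was the nearest to a change, with 26.3, 28.4 and 32.4 CPM in WAT AKO, against 21.7, 24.5 and 20.4 CPM in WAT control. The groups did not overlap, and the log2 fold change was 0.37 (95% interval 0.09 to 0.65, unadjusted p = 0.0177, adjusted p = 0.153; range over the alternatives 0.0572 to 0.421). Nrf1 measured 19.1, 17.6 and 23.6 CPM in WAT AKO, against 12.9, 18.2 and 14.0 CPM in WAT control. WAT control 2 lay within the AKO range for Nrf1, and the log2 fold change was 0.40 (95% interval −0.02 to 0.82, adjusted p = 0.236). WAT AKO 3 was the highest AKO library and WAT control 2 the highest control for Tfam and for Nrf1. The same libraries held the most B lymphocyte markers of their groups, 1538 CPM in AKO and 463 CPM in control, and the most T lymphocyte markers (8 of 8 detected), 470.5 CPM of a range of 239.7 to 470.5 in AKO and 260.5 CPM of a range of 8.70 to 260.5 in controls. The part of lymphocyte RNA in these values was not tested. Without WAT control 2 the log2 fold change was 0.42 for Tfam and 0.53 for Nrf1, with an adjusted p of 0.086 and 0.0858. Leaving out that library raised the genes called in WAT to 1649, and still 0 of the 10 were among them.

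Dnm1l and Fis1 were lower in every WAT AKO library than in every WAT control, with log2 fold changes of −0.22 (95% interval −0.52 to 0.07) and −0.13 (95% interval −0.32 to 0.07) that did not pass the test. The direction of Fis1 rests on the scaling, since library totals gave 0.0052. In all, 3 of the 10 genes had WAT groups that did not overlap, beside 30.4% of all genes tested. The intervals of the other genes all included 0: Mfn1 (0.12, −0.19 to 0.44), Polg (0.02, −0.27 to 0.31), Pink1 (0.02, −0.33 to 0.37), Opa1 (−0.04, −0.40 to 0.31), Mff (−0.16, −0.44 to 0.11) and Mfn2 (−0.20, −0.60 to 0.20). A fall of Mfn2 by 0.60 on the log2 scale, or a rise of Mfn1 by 0.44, would thus still lie within the error. Library totals shifted the median of all genes by 0.14 in this comparison and turned Opa1 to 0.09.

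In brown fat the picture was the same in number but not in the genes that came closest. In BAT AKO against BAT control edgeR called 0 of the 10 genes, where 0.0771% of all genes tested were called (11 genes), and DESeq2, with 2.13% of all genes called, and limma voom called 0. At an unadjusted p under 0.05 there was 1, Dnm1l, beside 13.6% of all genes. Dnm1l measured 79.5, 76.2 and 90.1 CPM in BAT AKO, against 75.0, 63.9 and 69.4 CPM in BAT control, with no overlap and a log2 fold change of 0.26 (95% interval 0.04 to 0.48, unadjusted p = 0.0283, adjusted p = 0.336; range over the alternatives 0.323 to 0.646). Fis1 (−0.16, 95% interval −0.42 to 0.10) and Polg (−0.17, 95% interval −0.36 to 0.02) were lower in all 3 AKO libraries than in any control and did not pass the test. These 3 separations stand beside 19.7% of all genes. Opa1 averaged 237 ± 44.1 CPM in BAT AKO and 202 ± 16.5 CPM in BAT control (SD, n = 3 each), a log2 fold change of 0.25 (95% interval −0.07 to 0.57), and without BAT AKO 3 it was 0.10 (Fis1 was then −0.05). BAT AKO 3 was also the highest library of its depot for Mfn2, Mff, Dnm1l and Tfam and the lowest for Fis1 and Nrf1. The other intervals included 0: Tfam (0.18, −0.04 to 0.41), Mfn1 (0.13, −0.08 to 0.34), Pink1 (0.10, −0.15 to 0.35), Mfn2 (0.09, −0.12 to 0.30), Mff (0.07, −0.13 to 0.26) and Nrf1 (−0.15, −0.42 to 0.12).

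The effect of AKO was compared between the depots in a fit of all 12 libraries. edgeR called 0 of the 10 genes, where 0.275% of all genes tested were called, limma voom called 0 and DESeq2 called 1, Dnm1l (0.50, adjusted p = 0.0412), with 7% of all genes. At an unadjusted p under 0.05 there were 2, Dnm1l and Nrf1, beside 18.4% of all genes. The log2 fold change of AKO over control for Dnm1l was 0.26 in BAT and −0.22 in WAT, a difference (BAT minus WAT) of 0.44 (95% interval 0.11 to 0.77, adjusted p = 0.168). For Nrf1, at −0.15 in BAT and 0.40 in WAT, the sign was the opposite, a difference of −0.59 (95% interval −1.06 to −0.12, adjusted p = 0.184). Without WAT control 2, the WAT control with most lymphocyte markers, it was −0.75 (adjusted p = 0.0508). For Mfn2 and Opa1 the differences were 0.25 (95% interval −0.16 to 0.67) and 0.26 (95% interval −0.21 to 0.72).

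Other genes of the same processes were read from 7 lists that hold none of the 10. The counts here and below stand beside 28.8% of all genes called higher and 30.5% lower in AKO mice, and 24.4% and 25.7% in controls. In BAT against WAT, all 10 tested genes of the cristae and MICOS complex, which folds the inner membrane beside Opa1, were called higher in both genotypes, with medians of 1.95 in AKO mice and 1.66 in controls. They included Samm50, of the outer membrane assembly machinery (2.45 and 2.62), Immt (mitofilin, 2.17 and 1.99) and Apoo (3.06 and 2.74), each value of a pair being for AKO mice and then for controls here and below. Of 15 genes of fusion and inner membrane processing, 12 were higher and 0 lower in AKO mice and 11 and 0 in controls (medians 1.46 and 1.36), with Chchd10 at 4.84 and 4.21 and Afg3l2, a protease of the inner membrane, at 2.41 and 2.11. Yme1l1 and Oma1, the proteases that cut Opa1, were not called in either genotype (0.19 and −0.15 for Yme1l1, 0.24 and 0.21 for Oma1). Of the fission adaptors and regulators, 9 of 14 were higher and 0 lower in AKO mice and 8 of 15 higher and 1 lower in controls (medians 0.79 and 0.47), led by Mtfp1 (3.53 and 3.28), an inner membrane protein, and Akap1 (3.40 and 2.90), an anchor for the kinase PKA, which inhibits Dnm1l. Mief2, a receptor for Dnm1l like Mff, was higher by 1.83 and 1.65.

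Of 21 genes that maintain and transcribe mitochondrial DNA, 13 were higher and 3 lower in AKO mice, and 11 higher and 1 lower in controls (medians 0.58 and 0.63). Polrmt, the mitochondrial RNA polymerase, was higher by 1.26 and 1.32, Lonp1, the protease that degrades Tfam, by 1.58 and 1.62, and the helicase Twnk by 1.33 and 1.80. Exog was lower in both (−0.72 and −0.72). Of 16 biogenesis regulators, 8 were higher and 4 lower in AKO mice and 7 higher and 0 lower in controls (medians 0.53 and 0.10). Called in both genotypes were, among others, Ppara (5.88 and 5.19), the coactivators Ppargc1b (4.51 and 5.22) and Ppargc1a (3.40 and 3.00), Sirt3 (2.84 and 2.85) and the estrogen-related receptor Esrra (2.55 and 2.55), while Gabpb1, a subunit of GABP, was at −0.87 in AKO mice (called lower) and −0.21 in controls (not called). Ppara is also one of the brown adipocyte markers used above. In the mitophagy list 12 of 22 were higher and 3 lower in AKO mice and 7 and 3 in controls (medians 0.33 and 0.13). Of all genes tested, 59.3% were called in AKO mice and 50.1% in controls. Gabarapl1, a protein of the autophagosome membrane, was higher by 0.82 and 1.23, and Fbxl4 was lower (−0.63 and −0.96). Of 10 transport and tethering genes, 9 were higher and 0 lower in AKO mice and 8 and 1 in controls (medians 1.02 and 0.88), with Rhot2 (Miro2) at 1.79 and 1.83 and the motor subunit Kif5b at −0.48 (not called) and −0.86 (called lower). With library totals fewer genes were called higher and more lower, beside 13.2% of all genes higher and 55.9% lower in AKO mice, and 14% and 41.6% in controls. The counts of higher and lower genes were then 10 and 2 in AKO mice and 11 and 2 in controls for fusion, 7 and 4 in each genotype for fission, and 8 and 0 in AKO mice and 9 and 0 in controls for the cristae list. They were 7 and 8 in AKO mice and 8 and 5 in controls for mitochondrial DNA, 7 and 6 in AKO mice and 6 and 6 in controls for biogenesis, 6 and 10 in AKO mice and 4 and 9 in controls for mitophagy, and 6 and 1 in each for transport.

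**Figure D5:**
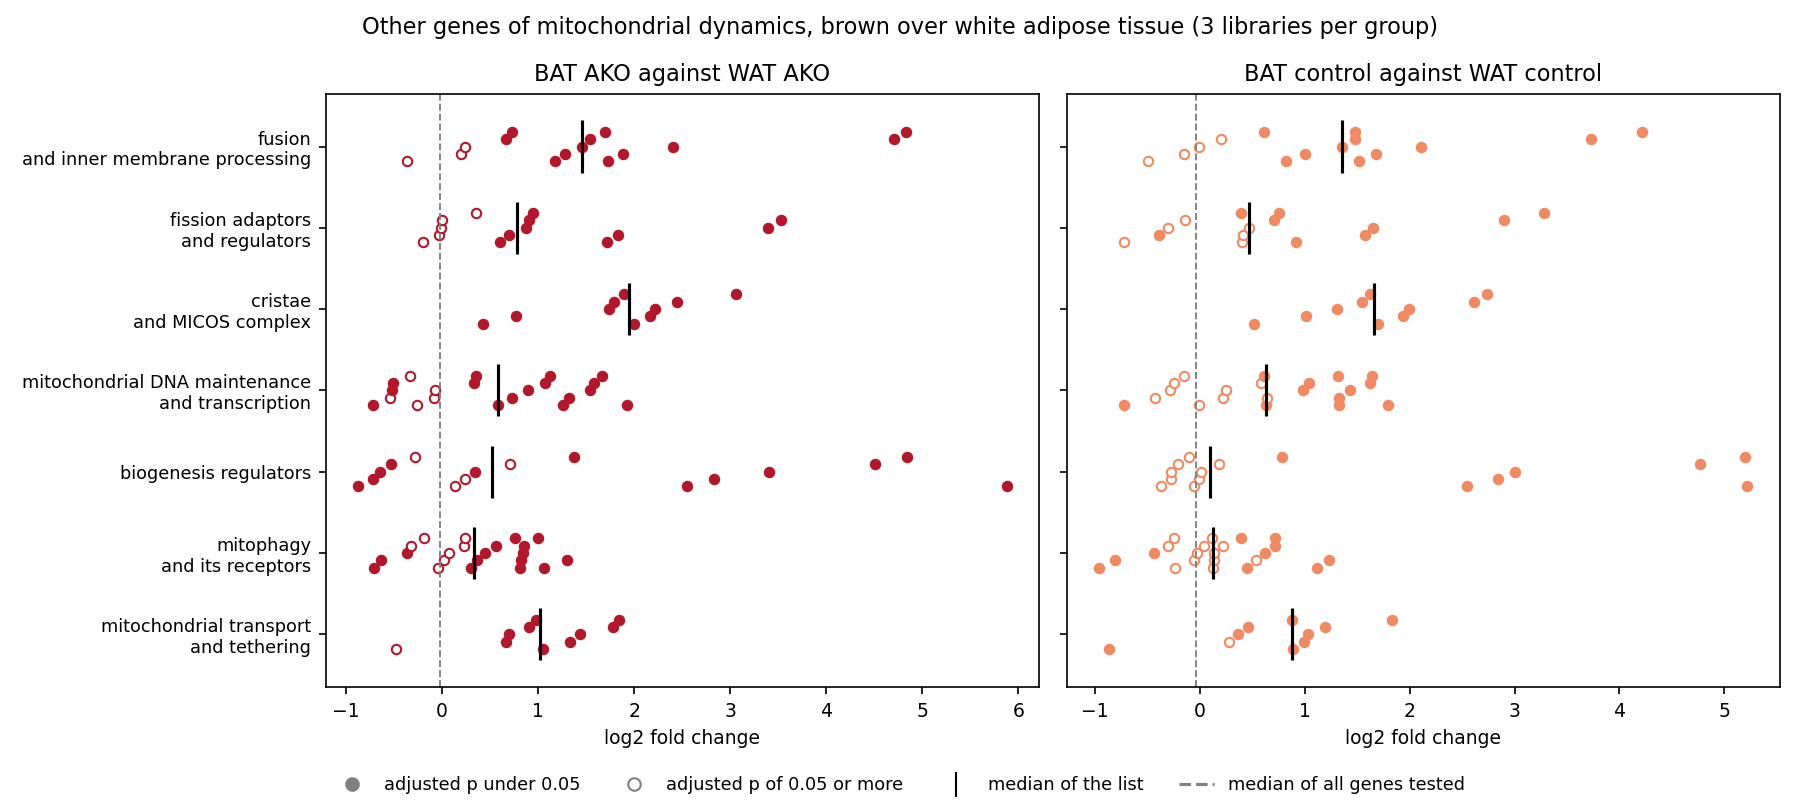
Log2 fold change of BAT over WAT for each gene of 7 lists, in AKO mice (left) and controls (right), with filled circles for an adjusted p under 0.05, a black bar at the median of the list and a dashed line at the median of all genes tested. The cristae list lies wholly to the right of the dashed line, and each other list has genes on both sides of it. With library totals the medians of the mitophagy and biogenesis lists are below 0 but above the median of all genes (−0.60 in AKO mice and −0.40 in controls).

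Between AKO and control, edgeR called 0 genes of the 7 lists in either depot and 0 in the difference between the depots, and limma voom called 0 in each. At an unadjusted p under 0.05 there were 13 of 108 listed genes in BAT, 18 of 109 in WAT and 15 of 110 in the difference, beside 13.6%, 22.6% and 18.4% of all genes. DESeq2 called 0, 6 and 5, beside 2.13%, 10.6% and 7% of all genes. In WAT the medians were −0.11 for fusion and inner membrane processing, −0.06 for fission, −0.13 for the cristae list, −0.11 for mitophagy and −0.20 for transport and tethering, and 0.15 for mitochondrial DNA maintenance and 0.16 for biogenesis regulators, beside 0.00 for all genes; with library totals the fusion, fission, cristae and mitophagy medians were 0.02, 0.06, 0.0024 and 0.03, beside 0.14 for all genes. The genes of these lists with the smallest p in WAT were Gabpb1 (0.61, 95% interval 0.31 to 0.91, adjusted p = 0.0945), Rmdn3, a tether to the endoplasmic reticulum (−0.71, 95% interval −1.12 to −0.31, adjusted p = 0.111), and Mtx2 (−0.54, 95% interval −0.85 to −0.23, adjusted p = 0.112). DESeq2 called these 3 in WAT (adjusted p = 0.00462, 0.00782 and 0.0158), together with Optn (−0.40), Opa3 (−0.45) and Polg2 (0.77). Without WAT control 2 edgeR called Rmdn3 (−0.87), Creb1 (0.54) and Gabpb2 (0.54). That library held 463 CPM of B lymphocyte markers, against 3.43 and 3.56 CPM in the other WAT controls. The WAT AKO libraries held 589 to 1538 CPM. Among the WAT controls Creb1 and Gabpb2 were highest in WAT control 2. The part of lymphocyte RNA in these calls was not tested. In BAT the 7 medians ran from 0.01 to 0.11, beside 0.01 for all genes. Ppargc1a was there at 0.63 (95% interval 0.22 to 1.05, adjusted p = 0.27) and Spire1 at −0.34 (95% interval −0.58 to −0.11, adjusted p = 0.273).

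The genes whose course over the 12 libraries was most like that of each member were found by the root mean square difference of log2 CPM centred on each gene's mean, among 10706 genes of at least 5 CPM. This measure mostly follows the difference between depots and is given as a description. For Pink1 the nearest included Foxo4 (0.094) and Mrpl45 (0.11), and for Tfam the 3 nearest were Gtf2h3 (0.087), Ints13 (0.1) and Parp1 (0.11). Mfn1 lay nearest to Ndufb1-ps (0.084), Bckdk (0.095) and Gfm2 (0.097), Mfn2 to Pomt1 (0.086), Nmnat1 (0.09) and Timm8b (0.091), and Opa1 to Isca1 (0.097), Grsf1 (0.11) and Hdhd2 (0.11). The closest were Rab18, Ccdc127 and Pnpla8 for Dnm1l, Ift46, Sumo3 and Sdf4 for Fis1, Rnf7, Mrps14 and Lias for Mff, and Htra2, Slc35a4 and Smg5 for Polg, at 0.069 to 0.0996. Among the members themselves Mff and Pink1 (0.17), Mfn2 and Pink1 (0.17) and Mfn1 and Mfn2 (0.17) were closest, and Opa1 and Fis1 (1.08) were farthest apart.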

How the data were processed

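Polyadenylated RNA was sequenced. Each library was put in its group, with its replicate number, by its title. The deposited counts are whole reads per Ensembl gene, made by the authors and not normalised. The authors also deposited FPKM values, which equal the counts over 1 length per gene and the library total (largest relative deviation 1.22e-08 for genes of at least 20 counts). The submitters' processing notes name HTSeq 0.6.0, HISAT2 2.1.0, Bowtie2 2.2.3 and build mm10. What each tool did, which annotation release was counted and whether strand was used is not given in the sources used here, so a gene and its antisense neighbour may share reads. Of 52550 IDs, 52403 had a symbol in GENCODE M21. Promoter sequences are from RefSeq (GRCm38.p6).

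The test was edgeR's quasi-likelihood F-test (version 4.0.16, R 4.3.3; TMM, filterByExpr with a minimum count of 10 and total of 15), with Benjamini-Hochberg adjustment over all genes tested and a threshold of 0.05. Each contrast of 2 groups was fitted on its 6 libraries, and the difference of AKO effects on all 12. Levels use TMM factors over all 12 libraries. Intervals are 95% intervals of the fit. The code was tested on simulated data. Alternatives were RLE factors, no filter, a mean of at least 2 CPM, DESeq2 1.42.0, limma 3.58.1 voom, limma on log2(FPKM + 1) or log2(FPKM + 0.1) or with a mean of at least 1 FPKM, the replicate number as a block, all 12 libraries in 1 fit, each library left out, the 3 muscle-rich libraries left out and, chosen after seeing the data, library totals without TMM and a block by number within genotype.

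Same-numbered libraries tended to deviate together between depots (r = 0.567, 0.676 and 0.136 in AKO, 0.517, 0.238 and 0.45 in controls). There the numbers may pair libraries, though the labels do not say so, and in AKO mice the unlike numbers 3 and 1 reached r = 0.431. Deviations were taken from each group's mean, so the r values of a comparison are not independent. The share of muscle markers ranked the numbers of a genotype alike in both depots, and its part in r was not tested. The fold changes, intervals and p-values given between depots come from fits without pairing, as does the difference of AKO effects. The blocks by number were alternatives only. No 2 libraries of a group agreed within counting noise (chi-square per degree of freedom 16.5 to 83.4). Each was counted as 1 replicate, but such a spread does not show that the libraries came from different animals.

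The 10 genes and all lists were chosen with earlier results of these data known. The text names all 10 genes, Mcu, from each list up to 4 called genes with the smallest p (up to 2 if none was called), and for each called member the 3 most alike genes; Oma1, Yme1l1, Exog, Gabpb1 and Kif5b in the depot contrasts, and genes called only under an alternative, were named after their values were seen. One gene that the rule names is not reported here.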

Additional observations from a re-analysis of the deposited data

How the results depend on the processing

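Which of the 10 genes were called did not change under the alternatives on TMM or RLE scaled counts, except that DESeq2 called 1 (Dnm1l) in the difference of AKO effects and that leaving out WAT control 2 added Nrf1 in BAT against WAT of controls (8 to 9 called over the libraries left out). With the replicate number as a block, the same 9 (AKO) and 8 (control) genes were called between depots, and 0 within depots, where calls over all genes went to 0 in WAT and 1 in BAT (3 and 11 without it); within depots same-numbered libraries did not deviate together (r = −0.472, −0.0185 and 0.219 in WAT, −0.615, −0.288 and 0.114 in BAT), and not every library correlated best with its own number. Over all genes DESeq2 called 1679 in WAT, 278 in BAT and 965 for the difference (45 in edgeR), the fit of all 12 libraries 1030 and the fit with no filter 277 in WAT, and limma on log2(FPKM + 1) 203 for the difference. Over the libraries left out, edgeR called 1 in WAT except 1649 without WAT control 2, 0 to 2 in BAT except 95 without BAT control 2, and 2 to 923 for the difference (923 without WAT control 2, 2 without WAT AKO 1, WAT AKO 3, BAT AKO 1 or BAT control 3). The block by number within genotype gave 261 for the difference, and the block by number 30.

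Fold changes that changed sign were not called under either setting, save Polg of BAT AKO against WAT AKO, which with limma on log2(FPKM + 1), with or without the FPKM filter, log2(FPKM + 0.1) and library totals was −0.0101, −0.00995 and −0.023. Under the same 3 scales Fis1 in WAT was 0.0074, 0.0076 and 0.0052, Opa1 in WAT 0.074, 0.0799 and 0.088, Nrf1 in control depots −0.036, −0.048 and −0.075, Dnm1l in control depots −0.228, −0.24 and −0.245, and Pink1 in the difference −0.102, −0.103 and −0.105; these scales lack the TMM factors. Without a filter Pink1 and Polg in WAT were −0.0013 and −0.0085. Without the muscle-rich libraries Pink1 was −0.0022 in BAT and −0.018 in the difference, and Mfn1 in the difference was 0.0082; RLE factors and DESeq2 gave 0.0295 and 0.0301. Leaving out 1 library moved these across 0 in WAT: Pink1 (−0.067 to 0.117), Mfn1 (−0.0094 to 0.179), Opa1 (−0.165 to 0.067) and Polg (−0.084 to 0.091); in BAT Pink1 (−0.0022 to 0.161); and in the difference Pink1 (−0.061 to 0.118), Mfn1 (−0.096 to 0.0896) and Fis1 (−0.131 to 0.037). The cause was not tested.

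In the difference of AKO effects the block also left 0 of the 10 called. Of the lists, DESeq2 called 1 gene each in WAT in 6 of 7 lists (0 in edgeR), and in the difference 1 each in the cristae, biogenesis and mitophagy lists and 2 in transport; the fit of all 12 libraries called 1 in WAT in the cristae, DNA maintenance, biogenesis and transport lists. Biogenesis regulators called between control depots were 12 on the FPKM scales and with library totals (7 with TMM). Leaving out 1 library gave 0 to 2 biogenesis and 0 to 1 transport genes in WAT, and 0 to 1 each in the cristae, biogenesis and transport lists in the difference. Depth limits Nrf1 most, at 211 to 514 counts per library.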
